A study of Mus musculus with 10 samples.

Results

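Mouse embryonic stem cells (mESCs) in which the promoter of *Hottip* had been targeted for activation were compared with control mESCs across all genes on the array, to find which genes and gene classes differ besides the *Hoxa* genes next to *Hottip*. The comparison uses 7 of the 10 arrays of the series, 4 with *Hottip* guide RNAs (gRNAs) and 3 controls, and every probe other than the control spots, so that no measured value entered the choice. All groups were E14 cells, a line of 129/Ola background, grown on gelatin with Lif, the cytokine that keeps mESCs undifferentiated. In the *Hottip* gRNA group, a pool of plasmids with 5 gRNAs for the *Hottip* promoter was transfected together with a plasmid for dCas9-VP160. The remaining 3 arrays are labelled for *Hoxa13* activation, which the methods describe as a pool of gRNAs for the *Hoxa13* promoter with the same dCas9-VP160 plasmid, but *Hoxa13* was not above background on them. They are called *Hoxa13* gRNA arrays here by that label. Puromycin at 2 μg/ml was kept on the cells for 24 hrs, and RNA was prepared 48 hrs after the transfection. The labels name the control by its control gRNAs and the methods describe non-targeting gRNAs with dCas9 alone, so the absence of VP160 and that of targeting gRNAs cannot be told apart in it. The *Hoxa13* gRNA arrays, which by the methods had VP160 with other gRNAs, are therefore given beside most of the called genes named. Replicates 1 and 2 of that group were on another slide than all other arrays.

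*Hottip* is a long non-coding RNA (lncRNA) transcribed from the end of the Hoxa cluster that holds *Hoxa13*, in the direction away from the cluster, and is known for keeping the neighbouring posterior *Hoxa* genes active together with MLL complexes, which methylate histone H3 at lysine 4. Posterior *Hox* genes encode homeodomain transcription factors that pattern the hindmost part of the trunk, the distal limb and the genital region, and they are silent in undifferentiated mESCs under Polycomb repression. dCas9-VP160 joins a Cas9 that no longer cuts DNA to copies of a viral activation domain, which a gRNA brings to a promoter. In these bulk samples, fewer cells of a type and less RNA per cell cannot be told apart.

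The gRNAs are shown because they define the DNA target in the *Hottip* gRNA group. Their sequences were read from the study's oligonucleotide list, without the cloning ends, and are written 5′ to 3′ in capitals throughout.
sg1: GCAGTAAGAAGGTAAACTCG
sg2: TCTCCTGACTTTAGCGGTCC
sg3: TACCCAGGACCGCTAAAGTC
sg4: GGATCAGGGAAGGTTTTATT
sg5: GGGATCAGGGAAGGTTTTAT
All 5 matched the *Hottip* promoter window of RefSeq (GRCm38.p6) exactly, each followed by an NGG motif, which Cas9 needs next to its target. The window runs from 250 bases before to 50 bases after the start of the gene, at chr6:52262525-52262824 on the plus strand, and the gRNA targets are in capitals.
*Hottip* promoter: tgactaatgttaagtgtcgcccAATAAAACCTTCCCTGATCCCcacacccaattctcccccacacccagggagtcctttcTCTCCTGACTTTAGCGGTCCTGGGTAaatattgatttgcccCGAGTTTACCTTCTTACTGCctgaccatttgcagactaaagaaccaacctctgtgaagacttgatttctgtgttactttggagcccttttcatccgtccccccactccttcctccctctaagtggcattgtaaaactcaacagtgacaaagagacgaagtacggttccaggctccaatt
The sites lay between 228 and 110 bases before the start and covered 67 bases, since sg4 and sg5 are shifted by 1 base against each other and sg2 overlaps sg3. Only sg2 reads along the plus strand (chr6:52262605-52262624), while sg1 (chr6:52262646-52262665), sg3 (chr6:52262611-52262630), sg4 (chr6:52262547-52262566) and sg5 (chr6:52262548-52262567) read along the minus strand. Among the other 32850 promoter windows, none held a target followed by NGG with 0 to 2 mismatches to any of these gRNAs, 1 window did with up to 3 and 23 (0.07%) did with up to 5. Of the 63 genes with a window that were called higher below, 0 had a site with up to 6 mismatches and 5 (7.94%) had one with up to 7, against 0.755% and 4.4% of all 27024 genes, and nothing is read from these small counts. The search covered these windows only, and says nothing of sites elsewhere in the genome.

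Levels are log2 values of the background-subtracted spot intensity relative to the 75th percentile of each array, so that 0 is a fairly bright spot. On the 7 arrays, 32.9% to 42.5% of the spots were well above background, and 39.8% to 51.3% held a substitute value that the scanner software enters where the signal is within its error, which makes differences of dim genes uncertain in size. All 7 arrays were on 1 slide, with *Hottip* gRNA replicates 1 and 2 and control replicate 3 in one row of it and *Hottip* gRNA replicates 3 and 4 and control replicates 1 and 2 in the other. *Hoxa13* gRNA replicate 3 was on the same slide, but *Hoxa13* gRNA replicates 1 and 2 were on another. A difference from the *Hoxa13* gRNA group may thus include a difference between slides. *Hottip* gRNA replicates 3 and 4 alone had no correction for trends across the array. Of the markers fixed for the labelled cell type, all 8 (*Pou5f1*, *Sox2*, *Nanog*, *Esrrb*, *Zfp42*, *Klf4*, *Tdgf1* and *Utf1*) were well above background on all 7 arrays. *Hottip* itself was matched to no probe and is not analysed here.

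Of 22830 probes tested, 164 (0.718%) passed an adjusted p-value of 0.05 (called, hereafter) in the linear model fitted with limma, 97 (0.425%) higher and 67 (0.293%) lower with *Hottip* gRNAs than in the control. Counts of called list members below are to be read against these shares, and nothing is read from a list without a call. The 97 higher probes include 84 with a gene symbol, for 80 genes, and 4 listed only by a genome region. The 67 lower probes include 42 with a symbol, for 39 genes, and 17 listed by a region. Of the higher probes, 28 were well above background on every array with *Hottip* gRNAs and on none of the controls, and 23 on all 7 arrays. Of the lower probes, 22 were well above background in every control and on none of the arrays with *Hottip* gRNAs, and 5 on all 7. In the direct comparison of *Hottip* gRNAs with *Hoxa13* gRNAs, 87 of 22825 probes (0.381%) were called, 62 higher and 25 lower. No control array enters its differences, but the control arrays share in setting the spread of the fit and the filter. The count was 55 without control replicate 2 and 116 without control replicate 3.

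*Hoxa13* and the other posterior *Hoxa* genes were looked at first, as the check of the labels. *Hoxa13* was at 3.60, 4.16, 3.88 and 3.17 on the 4 *Hottip* gRNA arrays and at −5.84, −5.0 and −3.46 on the control arrays, where it was not well above background. All 4 *Hottip* gRNA arrays were far above every control array, at least 144-fold (log2 difference 8.47, standard error (SE) 0.55, limma adjusted p = 0.000111). The arrays labelled *Hoxa13* gRNAs, at −3.68, −4.80 and −4.31, differed from the control by 0.50 (adjusted p = 0.725), and none was well above background. The gene that these gRNAs target thus goes against their label, and each direction drawn from this group below rests on the label alone. *Hoxa10*, a neighbouring posterior gene, was at −1.31, −1.32, −0.60 and −1.37 against −4.15, −5.13 and −4.40 in the control, at least 4.99-fold higher (adjusted p = 0.00170), and 3.25 above *Hoxa13* gRNAs (adjusted p = 0.00536). Its call was lost with the authors' log2 values (2.53, adjusted p = 0.0546) and with a replicate block (3.48, adjusted p = 0.0567). *Hoxa11os*, the transcript antisense to *Hoxa11*, was at −0.57, 0.17 and −0.50 on the 3 arrays with a usable spot against −4.48, −4.79 and −4.22, at least 8.98-fold higher (adjusted p = 0.00268), and 3.77 above *Hoxa13* gRNAs (adjusted p = 0.0110). *Hoxa11* was not well above background on any of the 7 arrays and was not tested. *Evx1*, on the other side of *Hottip*, exceeded background on 2 of the 7 arrays, both with *Hottip* gRNAs, and was not tested. Of the 8 other *Hoxa* genes, 3 were tested and none was called, among them *Hoxa9* with a difference of 0.48 (adjusted p = 0.997). In the other Hox clusters, 6 of 28 genes were tested and none was called, and the largest differences were 2.15 for *Hoxb9* (adjusted p = 0.376) and 2.07 for *Hoxb13* (adjusted p = 0.0987). Against *Hoxa13* gRNAs, *Hoxb13* was called (3.21, adjusted p = 0.0235) and *Hoxb9* was not (1.27, adjusted p = 0.467).

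**Figure D1:**
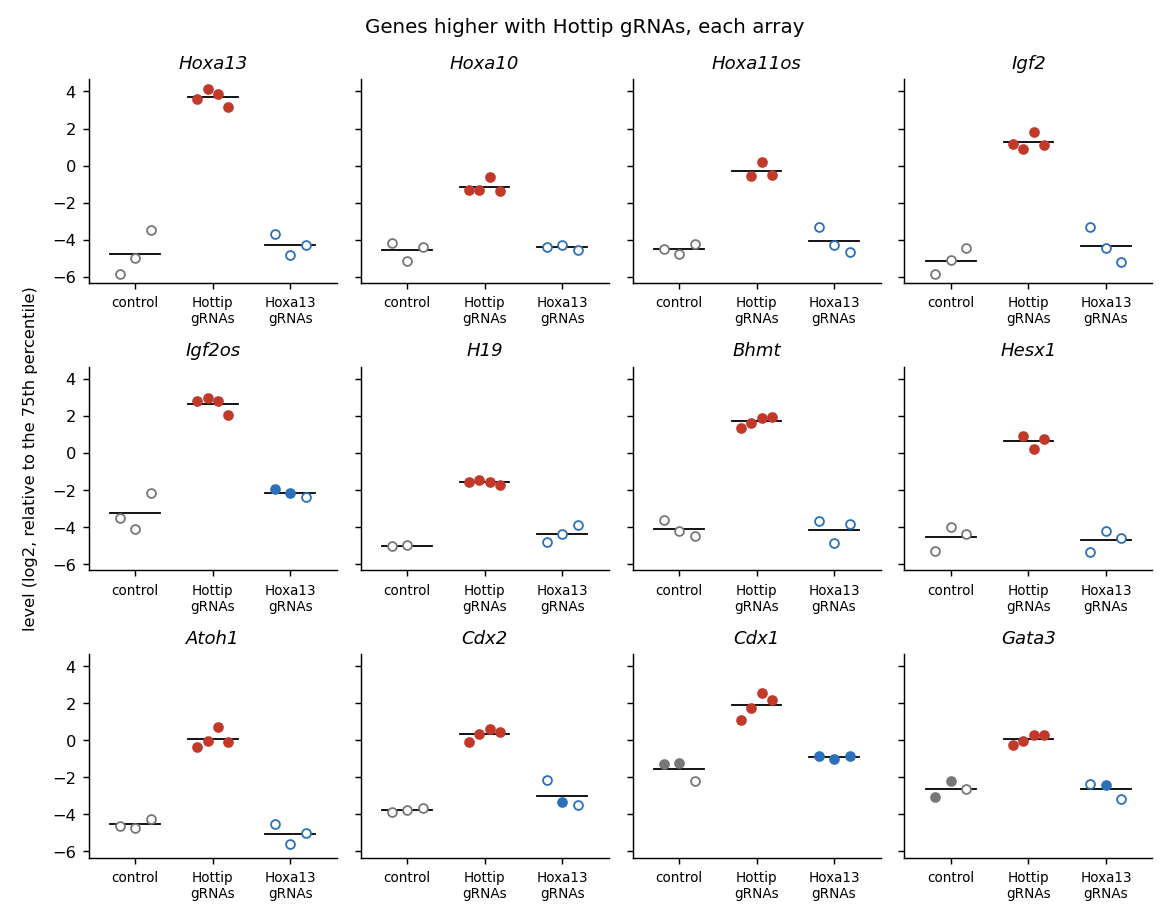
Level of 12 genes called higher with *Hottip* gRNAs on each array. The y axis is log2 relative to the 75th percentile of the array, each point is 1 array, filled where the spot was well above background and open where it was not, and the line is the mean of the group. The *Hottip* gRNA arrays lie above every control array in all 12 panels, and *Hoxa13* shows the largest difference (8.47).

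Among the named genes away from the Hoxa cluster, *Igf2* had the largest fitted difference. It encodes a growth factor of the fetus and placenta and is expressed from the paternal copy only. Its control was not above background, so this order is uncertain, and the bounds of *Igf2os* (47.7-fold) and *Bhmt* (32.9-fold) were higher than that of *Igf2*. *Igf2* was at 1.17, 0.92, 1.82 and 1.09 with *Hottip* gRNAs and at −5.83, −5.10 and −4.44 in the control, where no array was well above background. The groups were far apart, at least 26.3-fold (log2 difference 6.37, SE 0.51, adjusted p = 0.000255), and *Igf2* was also higher than with *Hoxa13* gRNAs (−3.33, −4.42 and −5.22) by 5.57 (adjusted p = 0.000989). *Igf2os*, a transcript antisense to *Igf2*, was at 2.81, 2.95, 2.82 and 2.05 against −3.48, −4.08 and −2.19, at least 47.7-fold higher (adjusted p = 0.000255), and stood 4.82 above the *Hoxa13* gRNA arrays (adjusted p = 0.00141). *H19*, an imprinted lncRNA expressed from the maternal copy of the same domain, has 5 probes. The one with the highest level was at −1.59, −1.45, −1.58 and −1.72 against −5.02 and −4.99 in the control replicates with a usable spot, a difference of 3.42 (SE 0.39, adjusted p = 0.00377), and it stood 2.78 above the *Hoxa13* gRNA arrays (adjusted p = 0.0124). This call rests on leaving out the spot of control replicate 3 as an outlier: the difference was 1.08 (adjusted p = 0.999) with outlier spots kept and 0.69 (adjusted p = 0.984) with the authors' log2 values. Without control replicate 2 it was 3.44 (adjusted p = 0.0538). The other 4 probes of *H19* were well above background on at most 1 of the 7 arrays and were not tested.

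The genes beside *Igf2* were then followed in chromosome order, over the 14 genes with a probe on each side. On chromosome 7, *Lsp1*, *Tnnt3*, *H19*, *Igf2*, *Igf2os* and *Ascl2* were called higher, and all 6 lay within 5 genes of *Igf2*. Of all probes tested, 0.425% were called higher. The stretch is centred on *Igf2*, itself a called gene. *Igf2*, *Igf2os*, *H19* and *Lsp1* passed the filter on dim probes only through the *Hottip* gRNA arrays, so the count is a description. *Tnnt3*, a troponin of fast skeletal muscle, was at −0.88, −0.60, −0.75 and −1.11 against −4.53, −4.77 and −4.68, at least 6.20-fold higher (adjusted p = 0.000435). It was at −1.89, −1.80 and −2.45 with *Hoxa13* gRNAs, between both other groups, and the difference of 1.21 from *Hottip* gRNAs did not pass the test (adjusted p = 0.182). *Tnnt3* was also called higher with *Hoxa13* gRNAs than in the control, by 2.61 (limma adjusted p = 0.0188). *Lsp1*, an actin-binding protein of leukocytes, was at −0.80, −0.90 and −1.20 on the 3 *Hottip* gRNA arrays with a usable spot against −4.09, −4.93 and −4.58, at least 5.65-fold higher (adjusted p = 0.00338), and 2.75 above *Hoxa13* gRNAs (adjusted p = 0.0235). *Ascl2*, an imprinted transcription factor needed for the placenta, was at 0.82, 1.51 and 1.20 on the 3 usable arrays against −0.95, −1.29 and −1.37 (difference 2.38, adjusted p = 0.0146) and exceeded the *Hoxa13* gRNA arrays by 2.29 (adjusted p = 0.0324). The other tested genes of the stretch were not called. Several genes of it, such as *Prr33* between *Lsp1* and *Tnnt3*, did not pass the filter and were not tested. *Tspan32*, next to *Ascl2*, differed by 1.02 (adjusted p = 0.731), or by 1.95 (adjusted p = 0.0680) with the local median subtracted. *Mrpl23*, which lies between *Tnnt3* and *H19*, differed by 0.13 (SE 0.43), *Th* by 0.96 (adjusted p = 0.330), and *Ctsd*, *Cd81* and *Tssc4* by 0.01, 0.06 and 0.07. *Cdkn1c* and *Slc22a18*, imprinted genes further along the chromosome, differed by −0.79 (adjusted p = 0.864) and −0.05. *Ins2* was not well above background on any of the 7 arrays.

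**Figure D2:**
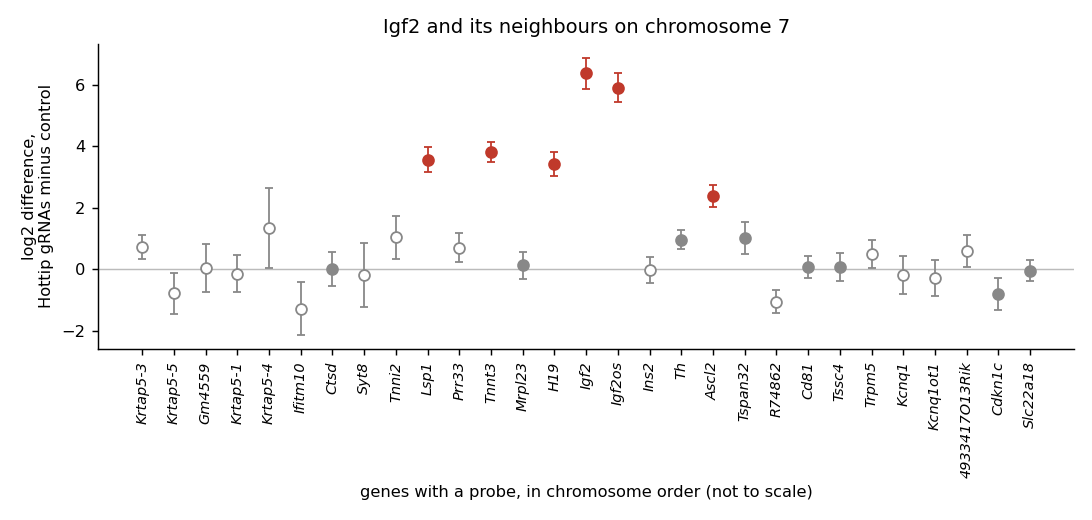
Log2 difference between *Hottip* gRNAs and the control for *Igf2* and 14 genes with a probe on either side, in chromosome order and not to scale. Bars are standard errors of the fit, red points are called, grey filled points were tested and not called, and open points did not pass the filter. The 6 called genes run from *Lsp1* (3.57) to *Ascl2* (2.38), with uncalled genes such as *Mrpl23* (0.13) among them.

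Of the fixed list of other imprinted genes, 21 of 29 were tested and *Ascl2* was the 1 called, where 0.425% of all probes were called higher. The median difference was 0.14, against −0.03 over all probes tested. *Peg10* (1.98, adjusted p = 0.123) and *Sgce* (1.48, adjusted p = 0.226), which are neighbours on another chromosome, came next. *Igf2r*, the receptor that removes Igf2, differed by 0.44 (adjusted p = 0.941). In the Igf pathway, of 18 genes 12 were tested, and none was called by limma or had an unadjusted p-value under 0.05, which 8.05% of all probes had in either direction. Its differences ran from −0.96 for the receptor *Igf1r* to 0.54 for the adaptor *Irs2*. *Peg12*, an imprinted gene that was not on the lists and is named after its values were seen, was at −1.42, −0.75, −0.32 and −0.69 against −2.84, −3.80 and −4.19 (difference 2.82, adjusted p = 0.0198), and 2.96 above *Hoxa13* gRNAs (adjusted p = 0.0486). It was called in 17 of 26 alternatives.

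*Bhmt* encodes betaine-homocysteine methyltransferase, which remakes methionine from homocysteine with betaine as the methyl donor, and is known to be abundant in the liver and in the early embryo. It was at 1.32, 1.64, 1.89 and 1.95 with *Hottip* gRNAs and at −3.62, −4.21 and −4.46 in the control, at least 32.9-fold higher (difference 5.79, adjusted p = 0.000141). The *Hoxa13* gRNA arrays, at −3.68, −4.88 and −3.85, overlapped the control, and *Hottip* gRNAs exceeded them by 5.83 (adjusted p = 0.000105). A second probe gave 5.53 (adjusted p = 0.000141), and the third, at a difference of 2.10, was not called (adjusted p = 0.245). None of the other 28 tested genes of one-carbon metabolism was called, and the median of the list was 0.12. Of all probes, 0.425% were called higher. The first *Bhmt* probe passed the filter on dim probes only through the *Hottip* gRNA arrays, so nothing is read from this count.

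The trophoblast is the outer lineage that forms the placenta. Of 25 trophoblast genes, 19 were tested, and 5 (*Cdx2*, *Krt7*, *Gata3*, *Ascl2* and *Krt19*) were called higher and none lower, where 0.425% of all probes tested were called higher. *Cdx2* and *Krt7* passed the filter on dim probes only through the *Hottip* gRNA arrays, so the count is a description. Among the 10 members that were well above background on all 7 arrays, *Ascl2* and *Krt19* were the 2 called, and differences ran from −0.61 for *Sox21* to 2.38 for *Ascl2*. These counts depend on control replicate 2, without which *Ascl2* (2.34, adjusted p = 0.101), *Krt19* (1.83, adjusted p = 0.181) and *Krt7* (2.90, adjusted p = 0.0538) were not called, leaving 2 of the 5. *Ascl2* and *Krt19* also lost their calls with the filter on all 10 arrays and with centring on the median. *Cdx2*, the homeodomain factor that sets up the trophoblast and later the hindgut and tail, was at −0.10, 0.32, 0.59 and 0.46 against −3.85, −3.74 and −3.63, at least 13.3-fold higher (adjusted p = 0.00105). The *Hoxa13* gRNA arrays were at −2.17, −3.33 and −3.48, and *Hottip* gRNAs exceeded them by 3.31 (adjusted p = 0.00679). *Gata3*, a zinc finger factor of trophoblast and other epithelia, was at −0.24, −0.04, 0.26 and 0.30 against −3.08, −2.22 and −2.65 (difference 2.72, adjusted p = 0.00649), and *Hottip* gRNAs exceeded *Hoxa13* gRNAs by 2.72 (adjusted p = 0.0149). Keratins of simple epithelia were called in part, *Krt7* and *Krt19* but not *Krt8* (1.72, adjusted p = 0.392, or 3.46, adjusted p = 0.147, with the local median around each spot subtracted) or *Krt18* (0.84, adjusted p = 0.715). *Krt7* was at least 3.74-fold higher (−1.77, −1.60, −1.24 and −1.66 against −4.53, −5.19 and −4.41, adjusted p = 0.00684), and did not pass against *Hoxa13* gRNAs (2.06, adjusted p = 0.0928). *Krt19* rose by 1.96 (1.00, 1.16, 1.10 and 0.82 against −0.79, −1.20 and −0.83, adjusted p = 0.0262), and did not pass against *Hoxa13* gRNAs either (1.53, adjusted p = 0.109).

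Among the uncalled members, *Tfap2c* (3.28, adjusted p = 0.115), *Peg10* (1.98), *Rhox6* (1.69, adjusted p = 0.0954), *Rhox9* (1.39) and *Gata2* (1.34) had higher means with *Hottip* gRNAs without passing the test. *Eomes*, a trophoblast stem cell factor well above background on all 7 arrays, differed by 0.88 (adjusted p = 0.553). Other defining markers stayed low: *Elf5* and *Hand1*, and the placental hormone and spongiotrophoblast genes *Prl3d1* and *Tpbpa*, were not well above background on any of the 7 arrays. Summed over the 7 markers fixed for trophoblast, the signal relative to the 75th percentile was 3.90 to 4.70 on the *Hottip* gRNA arrays and 1.07 to 1.16 on the control arrays, a sum that includes the called *Cdx2*, *Gata3* and *Krt7* and so adds nothing to their single values. The part that cells of another type have in these rises was not tested. Of the markers of other cell types, none was called, where 0.718% of all probes were. Not well above background on any of the 7 arrays were 1 of the 7 extraembryonic endoderm markers, 3 of 7 for fibroblasts, 2 of 4 each for neural precursors and mesoderm, and 2 of 5 for blood and endothelium. *Gata6*, an endoderm factor well above background on all 7 arrays, differed by 1.66 without overlap of the groups (adjusted p = 0.0929).

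*Cdx1* and *Cdx2* are also genes of the posterior end of the embryo, where they act upstream of *Hox* genes. In the list of caudal and posterior streak genes, 10 of 22 were tested, these 2 were called higher and *Fgf8* lower, where 0.425% and 0.293% of all probes were. *Cdx2* passed the filter on dim probes only through the *Hottip* gRNA arrays and *Fgf8* only through the control arrays, so nothing is read from these counts, and the call of *Fgf8* held in 12 of 26 alternatives. *Cdx1* was at 1.09, 1.75, 2.57 and 2.15 against −1.27, −1.23 and −2.23 (difference 3.46, adjusted p = 0.00393), and stood 2.79 above the *Hoxa13* gRNA arrays (adjusted p = 0.0235). Its call was lost with the authors' log2 values (3.18, adjusted p = 0.0885), with a replicate block (3.38, adjusted p = 0.105) and without the arrays that were not detrended (2.99, adjusted p = 0.0681). The third *Cdx* gene, *Cdx4*, was not well above background on any of the 7 arrays. *Fgf8*, a secreted growth factor of the primitive streak and tail bud, went the other way. Its probe with the highest level was at −2.85, −2.81, −3.67 and −4.05 against −1.03, −1.03 and −0.77, at least 2.96-fold lower (adjusted p = 0.0355), and a second probe was at least 4.22-fold lower (adjusted p = 0.00807). The first probe was at −1.67, −3.03 and −2.43 on the *Hoxa13* gRNA arrays, a difference of −0.97 (adjusted p = 0.422). *T*, the defining transcription factor of the streak, was well above background on 1 of the 7 arrays and was not tested, and the WNT target *Sp5* differed by 1.46 (adjusted p = 0.156). Among 13 tested WNT targets, *Cdx1* and *Ascl2* were the 2 called, both higher, where 0.425% of all probes were, and the median was 0.01. These calls are those already counted above, *Cdx1* in the caudal list and *Ascl2* in the trophoblast and imprinted lists. Limb genes, where posterior *Hoxa* genes act in the embryo, had 11 of 21 tested, and none called, with *Msx1* (1.63, adjusted p = 0.0858), *Epha4* (1.46, adjusted p = 0.214) and *Msx2* (1.45, adjusted p = 0.233) at the top.

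A pair of further transcription factors of the nervous system rose from below background. *Hesx1*, a homeobox repressor of the anterior forebrain and pituitary that is also expressed in mESCs, was at 0.92, 0.22 and 0.75 on the 3 *Hottip* gRNA arrays with a usable spot against −5.27, −4.02 and −4.35, at least 17.1-fold higher (adjusted p = 0.00110). *Atoh1*, a basic helix-loop-helix factor of hair cells, secretory gut cells and cerebellar granule cells, was at −0.37, −0.04, 0.73 and −0.12 against −4.64, −4.72 and −4.27, at least 11.5-fold higher (adjusted p = 0.000450). Both were higher than with *Hoxa13* gRNAs as well, *Hesx1* by 5.34 (adjusted p = 0.00141) and *Atoh1* by 5.11 (adjusted p = 0.000275). Of the 8 tested genes of the neural precursor list, which does not hold *Atoh1*, *Hesx1* alone was called. The median was 0.12, and 0.425% of all probes were called higher. *Hesx1* passed the filter on dim probes only through the *Hottip* gRNA arrays, so nothing is read from this count. *Sox1* differed by −1.76 (adjusted p = 0.121), or was called with the local median subtracted (−1.86, adjusted p = 0.0167).

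**Figure D3:**
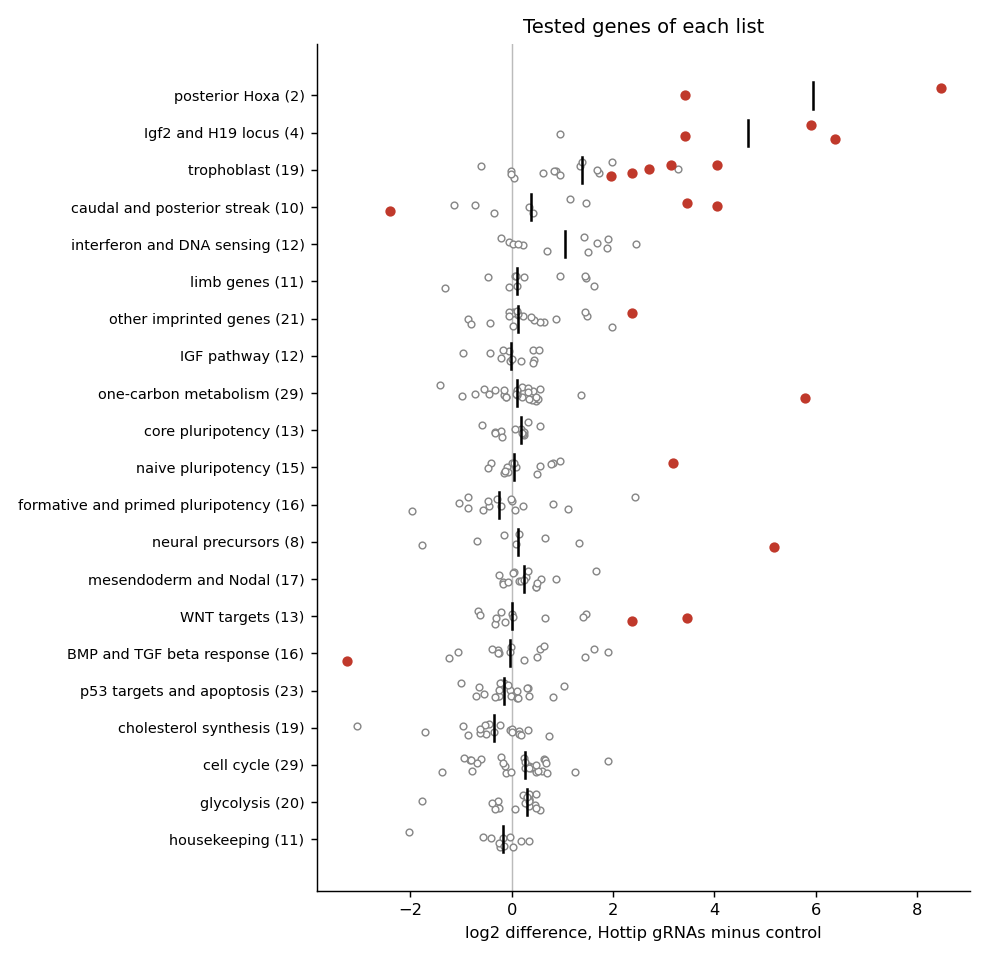
Log2 difference between *Hottip* gRNAs and the control for the tested genes of 21 lists, with the number tested in brackets. Red points are called genes, open points were not called, and the black line is the median of the list. The trophoblast list has 5 called genes and the core pluripotency list none, and genes that did not pass the filter are not drawn.

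In the lists of core, naive, and formative and primed pluripotency genes, 1 gene was called. None of 13 core pluripotency genes was called by limma or had an unadjusted p-value under 0.05. Of all probes, 0.718% and 8.05% did, so nothing is read from this count. The differences of the 13 genes ran from −0.58 for *Sox2* (adjusted p = 0.910) to 0.56 for *Nanog* (adjusted p = 0.930). *Pou5f1* was at 5.28, 5.68, 5.06 and 4.44 against 4.38, 4.85 and 5.57, so that the groups overlapped (difference 0.18, SE 0.49). Of 15 naive pluripotency genes, *Spic*, an Ets-family factor, was called. It was at 0.38, 0.23, −0.02 and 0.28 against −3.19, −1.78 and −3.91, at least 7.90-fold higher (adjusted p = 0.0130), but it was well above background on all 3 *Hoxa13* gRNA arrays too (−1.04, −0.43 and −1.34), from which it did not pass the test (difference 1.15, adjusted p = 0.393). *Dppa1*, a gene named for its link to developmental pluripotency, was called by 1 of its 2 probes (−1.01, −0.73 and −0.61 on the 3 usable arrays against −5.99, −5.15 and −4.49), at least 6.43-fold higher (adjusted p = 0.00300), and 3.75 above *Hoxa13* gRNAs (adjusted p = 0.0175). Its other probe was well above background on 2 of the 7 arrays and was not tested. None of 16 tested formative and primed genes was called, where the extremes were −1.96 for *Sall2* and 2.43 for *Dnmt3a*, whose spot lies in the slide area described below and which differed by 4.94 (adjusted p = 0.0772) with the local median subtracted. *Sall2* was called with that setting (−2.16, adjusted p = 0.0163) and in 11 of 26 alternatives in all.

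*Ly6a* and *Ly6c1*, neighbouring genes of lipid-anchored surface proteins on chromosome 15, were well above background in every group. *Ly6a* was at 3.09, 3.30, 3.37 and 3.13 against 0.00, −0.65 and −0.33 (difference 3.55, SE 0.34, adjusted p = 0.00105). *Ly6c1* was at 3.25, 3.52, 3.69 and 2.81 against −0.19, −0.95 and −0.39 (difference 3.83, adjusted p = 0.00161), and both exceeded the *Hoxa13* gRNA arrays, by 2.36 (adjusted p = 0.0207) and 2.52 (adjusted p = 0.0444). *Ifit1bl2*, of the family of interferon-induced Ifit proteins, was at 1.52, 3.10, 1.80 and 2.23 against −2.37, −0.28 and −2.38 (difference 3.84, adjusted p = 0.0138), and 3.46 above *Hoxa13* gRNAs (adjusted p = 0.0426). Its spot lies in the slide area described below, and its difference was 4.58 (adjusted p = 0.0204) with the local median subtracted. In the list of interferon and DNA sensing genes, 12 of 27 were tested and none was called by its probe with the highest level. The median over the 12 was 1.06, and 6 were higher at an unadjusted p-value under 0.05 and none lower, where 8.05% of all probes passed that in either direction. Of these 6, *Cxcl10*, *Sting1* and *Rsad2* passed the filter on dim probes only through the *Hottip* gRNA arrays, so that both values are a description. The 7 that were well above background on all 7 arrays differed by −0.22 (*Ddx58*) to 2.45 (*Oas1a*). The difference of *Oas1a* by that probe had an adjusted p = 0.0964 (4.35, adjusted p = 0.0572, with the local median subtracted), and another of its probes was called (0.28, 0.82 and 0.88 on the 3 usable arrays against −2.10, −2.53 and −2.47). *Sting1* (1.89), *Cxcl10* (1.87), *Rsad2* (1.69), *Ifit2* (1.52) and *Isg15* (1.43) were uncalled, with adjusted p-values of 0.220, 0.242, 0.208, 0.299 and 0.173. With the local median subtracted, *Isg15* was called (2.10, adjusted p = 0.0118). *Cxcl10* was well above background on *Hottip* gRNA arrays only. *Ifnb1* was not well above background on any of the 7 arrays.

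The other named rises were of single genes of different tissues. *Aspa*, an enzyme that splits N-acetylaspartate, was at −0.89, 0.57 and 0.08 on the 3 usable *Hottip* gRNA arrays against −4.39, −4.99 and −3.88, at least 10.5-fold higher (adjusted p = 0.00316), and 2.92 above *Hoxa13* gRNAs (adjusted p = 0.0424). *Crispld2*, a secreted protein, was at −0.08, 0.01, −0.03 and −0.32 against −4.06, −4.63 and −4.24, at least 10.3-fold higher (adjusted p = 0.00105), and its other probe was called too (3.00, adjusted p = 0.00715). It stood 3.27 above *Hoxa13* gRNAs (adjusted p = 0.00908). *Slc4a1*, the anion exchanger of red cells and kidney, was at −0.26, 0.01, 0.18 and −0.76 against −4.30, −4.87 and −2.04, at least 7.13-fold higher (adjusted p = 0.0212), and 3.31 above *Hoxa13* gRNAs (adjusted p = 0.0486). Of the genes called but not chosen by the naming rule, and given here after their values were seen, the neuropeptide gene *Npy* rose by 3.92 (adjusted p = 0.00684), *Anxa1* by 2.93 (adjusted p = 0.0171) and *Ccm2l* by 2.18 (adjusted p = 0.0195). Against *Hoxa13* gRNAs these were 3.51 (adjusted p = 0.0235), 2.92 (adjusted p = 0.0208) and 2.19 (adjusted p = 0.0350). No list of stress, heat shock, p53, cell cycle, glycolysis, citric acid cycle or hypoxia genes had a called member. At a share of 0.718% over all probes, nothing is read from this. The cell cycle gene *Ccnd2* (−1.37, adjusted p = 0.134) was called with the local median subtracted (−1.63, adjusted p = 0.0323). Over all 45 lists, 32 had none, with 423 tested members among them, and 0.718% of all probes were called.

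Of the named falls, the steepest was *Tlx2*, a homeobox gene of the enteric nervous system and a target of BMP signals. It was at 3.28 and 3.25 on the 2 control arrays with a usable spot, and at −3.65, −3.93, −4.54 and −4.74 with *Hottip* gRNAs, where no array was well above background. The level was at least 54.7-fold lower (difference −7.48, SE 0.51, adjusted p = 0.000230). The *Hoxa13* gRNA arrays were low as well (−3.01, −3.33 and −4.43), and the direct comparison gave −0.63 (adjusted p = 0.542). *Nrn1*, a neurite growth protein, was at 1.74, 1.32 and 1.77 in the control against −2.48, −3.34, −3.03 and −3.48, at least 17.4-fold lower (adjusted p = 0.00239), and it was low on the *Hoxa13* gRNA arrays too (−4.26, −2.34 and −2.03).

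The remaining named falls away from the slide area described next were smaller. *Aqp5*, a water channel of glands and lung, was at −0.31, −0.49 and 0.33 in the control against −4.39, −4.22, −3.50 and −3.63, at least 5.11-fold lower (adjusted p = 0.00137), and its second probe was called too (−3.18, adjusted p = 0.0107). It was at −2.69, −2.69 and −3.40 on the *Hoxa13* gRNA arrays (adjusted p = 0.358). *Lrrn1*, a leucine-rich repeat membrane protein of neural tissue, was at least 4.22-fold lower (adjusted p = 0.00600) and *Gadl1*, a decarboxylase, at least 2.63-fold lower (adjusted p = 0.00268). *Tgfbi*, an extracellular matrix protein induced by TGF beta, was well above background on every array. It was at 3.74, 4.14 and 4.57 in the control against 1.00, 1.18 and 0.52 on the 3 usable *Hottip* gRNA arrays (difference −3.25, SE 0.41, adjusted p = 0.00646), and none of the other 15 tested genes of the BMP and TGF beta response was called. On the *Hoxa13* gRNA arrays *Tgfbi* was at 1.51, 2.34 and 1.74. None of the named falls was called in the direct comparison with *Hoxa13* gRNAs, which shares the *Hottip* gRNA arrays with this one, and their differences there ran from −1.84 to 0.22, with *Lrrn1* at −0.72 (adjusted p = 0.510) and *Gadl1* at 0.22 (adjusted p = 0.810). *Cxcl14*, a chemokine given after its values were seen, was lower than in the control by 2.56 on the log2 scale (adjusted p = 0.00649), and lower still on the *Hoxa13* gRNA arrays (−4.35, −4.60 and −4.84). *Neurod1* was called by 1 probe only, and the probe with its highest level differed by −1.81 (adjusted p = 0.199).

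**Figure D4:**
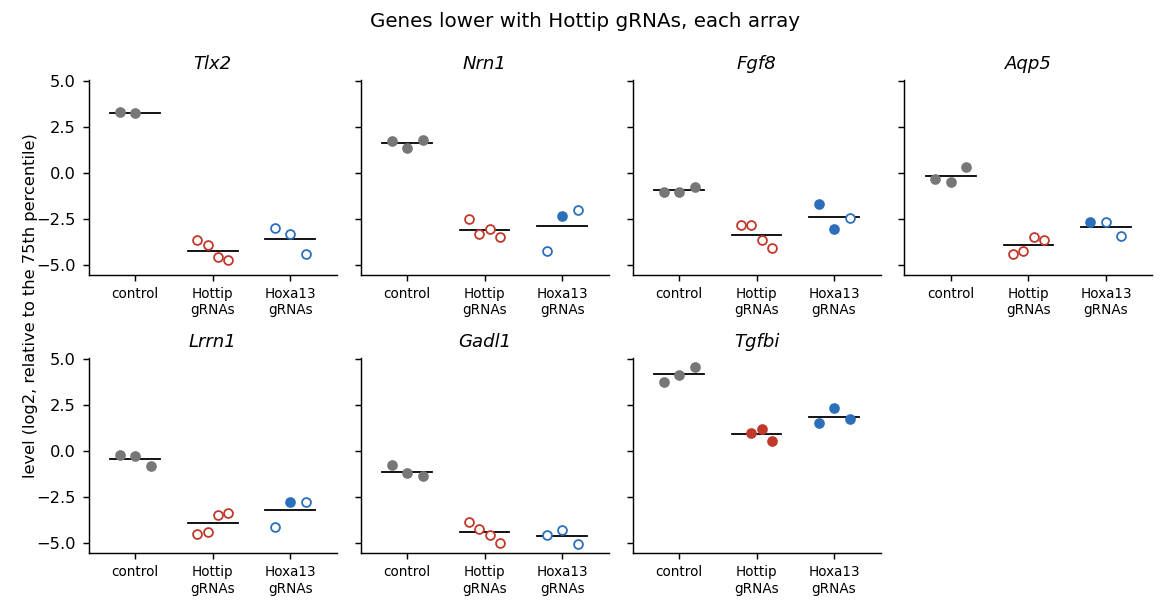
Level of 7 genes called lower with *Hottip* gRNAs on each array, drawn as in the plot of higher genes (filled points well above background, open points not, line at the mean). In all 7 panels the control arrays lie above the *Hottip* gRNA arrays, and the *Hoxa13* gRNA arrays lie below every control array.

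The position of the called probes on the array was then examined, since a mark on 1 array can make neighbouring spots bright together. Of the 67 lower probes, 33 had another lower one within 5 rows and 5 columns, as had 23 of the 97 higher probes among the higher ones. Lower probes linked in this way into groups of at least 3 spanned rows 337 to 354 and columns 42 to 115, an area of 2.11% of the array that held 30 of the 67 lower probes and 3 of the 97 higher. The local median in this area, relative to that of the whole array, was 2.08 on control replicate 1 and 3.24 on control replicate 2, but −0.51 on control replicate 3, and it was 1.78, 0.29, 0.00 and −0.18 on the *Hottip* gRNA arrays. After the local median of 11 by 11 spots was subtracted on each array, 5 of these 30 lower probes were still called, as were 25 of the 37 outside the area. *Antxr2* lies inside the area, and *Atp7b* beside it in row 347 and column 136. *Antxr2* was at 1.83 and −0.63 on the 2 usable control arrays, and its difference shrank from −4.93 to −2.55 (adjusted p = 0.409) with the local median subtracted. *Atp7b* rests on 1 usable control array, and its difference shrank from −7.15 to −4.28 (adjusted p = 0.0368). The area's part in the other lower probes there was not tested. Of the 97 higher probes, 59 (60.8%) were still called with the local median subtracted. *Igf2* went from 6.37 to 6.11, *Bhmt* from 5.79 to 6.05 and *Cdx2* from 4.06 to 4.25, and all 3 stayed called, while *Cdx1* (3.27, adjusted p = 0.200), *Gata3* (1.95, adjusted p = 0.328), *Krt19* (1.52, adjusted p = 0.200) and *Spic* (3.01, adjusted p = 0.0895) did not. Of the uncalled genes given above, *Hoxb9* went from 2.15 to 1.01, *Sgce* from 1.48 to 0.55 and *Rhox9* from 1.39 to 2.40, and all 3 stayed uncalled, while *Isg15*, *Sall2*, *Sox1* and *Ccnd2* became called.

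**Figure D5:**
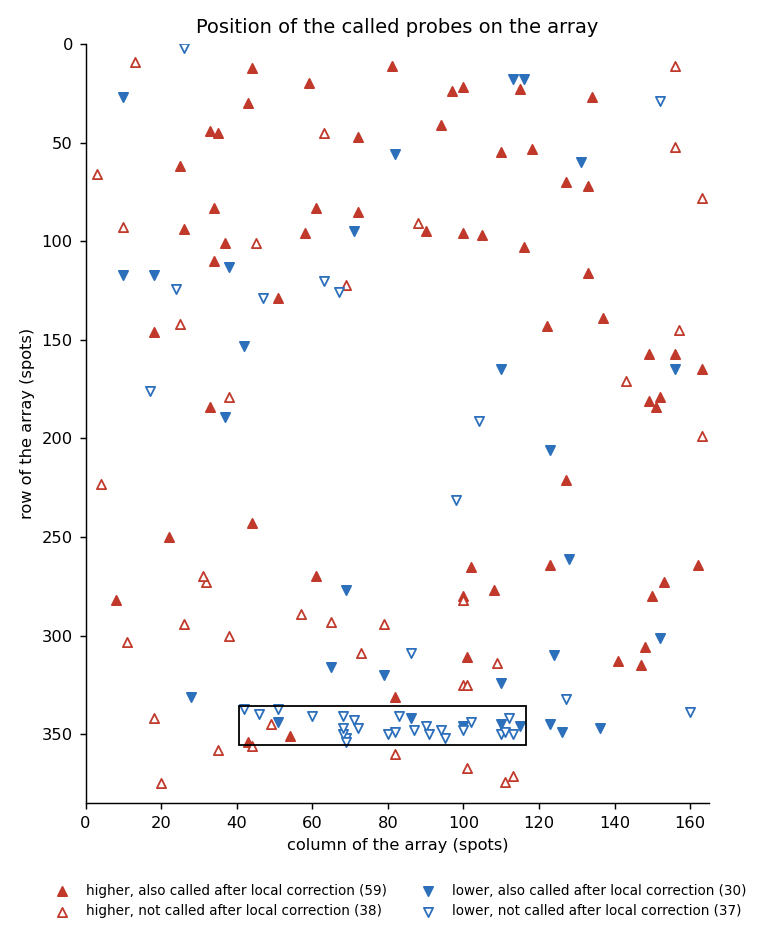
Row and column of the 164 called probes on the array, in spots. Upward triangles are higher and downward triangles lower with *Hottip* gRNAs, filled where the probe was also called with the local median subtracted, and the box is the area of linked lower probes. The box holds 30 of the 67 lower probes.

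Within the row of the slide that held detrended arrays only (*Hottip* gRNA replicates 1 and 2 and control replicate 3), *Igf2* differed by 5.49, *Bhmt* by 5.94, *Cdx2* by 3.74, *Ly6a* by 3.52, *Nrn1* by −4.68 and *Tgfbi* by −3.57. Within the other row, where the *Hottip* gRNA arrays were not detrended, the same genes differed by 6.91, 5.83, 4.32, 3.58, −4.79 and −3.09. Fitted without the arrays that were not detrended, *Igf2*, *Bhmt*, *Cdx2* and *Ly6a* kept their calls, and *Nrn1* and *Tgfbi* lost theirs. Among other genes that lost the call there were *Lsp1*, *Aspa*, *Hoxa11os*, *Gata3* and *Gadl1*. For single genes with all 7 arrays usable, a two-sided exact permutation test of the difference gave p = 0.0286, the smallest that 4 arrays against 3 allow, for *Igf2*, *Bhmt*, *Cdx2*, *Ly6a* and *Nrn1*. When single arrays were omitted, the difference lay between 6.02 and 6.71 for *Igf2*, between 5.61 and 6.03 for *Bhmt* and between 3.97 and 4.19 for *Cdx2*, called each time. Other calls were lost in some of the 10 fits with an array left out. *Fgf8* lost its call in 7 of them (differences −2.58 to −2.17), *Krt19* in 6 (1.83 to 2.04), *Slc4a1* in 4 (2.96 to 4.38), *Anxa1* in 4 (2.80 to 3.06), *Peg12* in 4 (2.53 to 3.20), *Ccm2l* in 4 (1.94 to 2.45) and *Ascl2* in 3 (2.21 to 2.56). For these 7 genes, control replicate 2 was among the arrays whose omission ended the call. It was the 1 such array for *H19*, *Krt7* (2.90 to 3.29) and *Npy* (3.40 to 4.55), and control replicate 1 was for *Spic* (2.70 to 3.77). *Ifit1bl2* lost its call without *Hottip* gRNA replicate 4 or control replicate 1 (3.48 to 4.54), and *Antxr2* (−6.16 to −3.70) and *Atp7b* (−7.46 to −6.88, in 9 fits) without *Hottip* gRNA replicate 3 or 4. With the authors' log2 values, *H19*, *Hoxa10*, *Cdx1*, *Krt19* (1.67, adjusted p = 0.114), *Peg12* (2.28, adjusted p = 0.299), *Ccm2l* (1.72, adjusted p = 0.113), *Atp7b* (−3.75, adjusted p = 0.439) and *Antxr2* (−1.98, adjusted p = 0.80) lost their calls.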

How the data were processed

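Agilent one-colour mouse arrays measured RNA from 10 samples. The deposited scanner files give an intensity for each spot, made with Feature Extraction 11.5.1.1. The processed intensity has the background subtracted and was also detrended across the array, other than for replicates 3 and 4 with *Hottip* gRNAs. A table of log2 values deposited by the authors for the same arrays served as an alternative. Control and outlier spots were left out, log2 of the processed intensity was taken, and the 75th percentile of each array was subtracted. A missing array in a list of values is an outlier spot. Spots of one probe were averaged.

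Group means were fitted over all 10 arrays by lmFit and eBayes of limma 3.58.1, run in R 4.3.3. P-values were adjusted by Benjamini-Hochberg over probes that exceeded background clearly on 3 or more arrays. Adjusted p-values come from this fit unless the sentence names another setting. A bound ("at least N-fold") compares the brighter group's mean with that of the dimmer group, after each dim spot was raised to the lowest signal well above background on its array where it lay under it. Single genes also had two-sided exact permutation tests. Replicates are separate samples by their labels, and the number of arrays limits the precision.

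Symbols, gene order and promoters came from RefSeq (GRCm38.p6). The array header names mm9, and no coordinates were moved between builds. Of 55681 probes, 27656 matched a symbol by accession. A gene with several probes is given by the one with the highest mean. Named genes are the 15 largest rises and 10 largest falls among called, non-overlapping probes that were detected throughout the brighter group and had no neighbouring spot called in the same direction, the called genes of each list with its extremes, the posterior *Hoxa* genes and the mESC markers. Some genes that the rule names are not reported here. The genes and lists were chosen with earlier results of these data known. On simulated data with 50 probes at each true log2 change, 0, 26, 38 and 42 were called at 1, 2, 3 and 4, with 4 false among 110 calls. The simulated noise was normal and independent between probes, without substitute values, outlier spots or marks on the slide. Its share of false calls therefore need not hold for the calls given here. Alternatives were other scalings, background corrections, filters and blocks, and each array left out.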

Additional observations from a re-analysis of the deposited data

Results flagged for a closer look

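In 106 groups of 4 *Hottip* gRNA arrays, 9 had one array apart from the other 3 by Dixon's ratio of gap to range, and chance gives about 1 in 20 such groups. For *Hoxa10* the ratio was 0.916, with replicate 3 at −0.60 and the others between −1.37 and −1.31. For *Igf2os* it was 0.850, with replicate 4 at 2.05 below the others (2.81 to 2.95). *Rapgefl1*, called lower, gave 0.944, with replicate 4 at −3.84 above −4.18 to −4.16, and *Ica1*, also called lower, gave 0.900, with replicate 3 at −0.82 above −1.69 to −1.61. For both genes the *Hottip* gRNA arrays did not overlap the control. The other 5 were uncalled genes. *Acta1* gave 0.927 (replicate 4 at −3.32 against −2.69 to −2.64) and *Sp110* gave 0.863 (replicate 3 at 4.05 against 3.14 to 3.27). *Hsp90aa1* gave 0.833 (replicate 4 at 2.16 against 4.84 to 5.37), *Myh3* gave 0.874 (replicate 1 at −2.19 against −1.07 to −0.91) and *Sting1* gave 0.878 (replicate 1 at −3.49 against −1.87 to −1.65).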

How the results depend on the processing

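The count of 164 called probes (97 higher, 67 lower) moved with the processing, while none of 1070 refitted differences of the 41 named called genes changed sign. The 41 genes were called on the same arrays that were refitted, so the kept signs add no separate support. Of the 1070 refitted differences, 931 kept their call and 139 lost it, and 9 genes lost it nowhere. The counts called, higher and lower were 83, 54 and 29 with the authors' log2 values, 5, 4 and 1 with a filter on all 10 arrays, 413, 263 and 150 with the slide as a block, 807, 424 and 383 with the slide row as a block, and 36, 28 and 8 without the arrays that were not detrended. Centring on the median gave 107 called and 40 lower, keeping outlier spots 107 and 29, quantile normalization 149 higher, no filter 43 lower, and a fit to the 7 arrays alone 37 lower. With one array left out, the counts ran from 56 (without control replicate 2) to 240 (without control replicate 3), from 35 to 99 higher and from 21 to 141 lower, at the same 2 arrays. Against *Hoxa13* gRNAs, the 87 calls became 148 with the percentile over detected probes, 31 without a filter, 133 and 451 with the slide and its row as a block, 134 with the local median subtracted, and 11 (without *Hoxa13* gRNA replicate 2) to 116 (without control replicate 3) with one array left out. With the filter on all 10 arrays limma called 0 there, where 1214 of 14114 probes had an unadjusted p-value under 0.05. The other counts stayed within 1.5 times, among them 211 called with the spread moderated over the tested probes only, which was chosen after seeing the data. The cause was not tested.

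Deviations from the group means of same-numbered *Hottip* gRNA and control arrays correlated at −0.31, −0.13 and −0.28 over 14115 probes. The arrays of each such pair lay in different rows of the slide, so these values cannot decide whether the replicate numbers pair the samples. With the replicate block, 13 probes were called, 11 higher and 2 lower. Dim spots limit the sizes: 39.8% to 51.3% of spots on an array held a substitute value.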
